A study of Mus musculus with 6 samples.

Results

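The 10 genes described here belong to the transforming growth factor beta (TGF-beta) pathway. They are the ligand gene Tgfb1, the receptor genes Tgfbr1, Tgfbr2 and Acvr1, the signal transducers Smad2 and Smad3, and the inhibitors Smad7, Ski, Skil and Pmepa1. They were taken from the count table by symbol, 10 of its 16281 genes, and were chosen from the GSK and Veh values of this same table. Their differences between GSK and Veh are therefore given as a description, without a test. The cells were CD8+ T cells from spleens of OT1 mice, which are on the C57BL/6 strain and carry the transgene Tg(TcraTcrb)1100Mjb, a T-cell receptor for an ovalbumin peptide. All cultures, Veh included, were activated for 48 h with antibodies to CD3 and CD28 and with IL-2, and were then expanded for 3 days. GSK samples (n = 3) received 0.5 μM GSK2879552, an irreversible inhibitor of the histone demethylase LSD1, throughout activation and expansion. Veh samples (n = 3) received vehicle. The age of the mice is not given in the sources used here, and the cells share 1 receptor specificity and were kept in culture.

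In this pathway, active TGF-beta binds the type II receptor TGFBR2, which recruits and phosphorylates the type I receptor TGFBR1. TGFBR1 in turn phosphorylates SMAD2 and SMAD3, which enter the nucleus with SMAD4 and regulate transcription. ACVR1, also called ALK2, is another type I receptor, which mainly transmits bone morphogenetic protein and activin-family signals through SMAD1 and SMAD5. In CD8+ T cells TGF-beta is known to restrain cytotoxic effector functions and to favour residence in tissues.

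The deposited values were counts of reads per gene, and they summed to between 18288447 and 18918811 in Veh and to between 19149909 and 19846720 in GSK. Levels below are CPM, the read count of a gene scaled to the TMM-adjusted total of its sample. Differences are log2 fold changes of GSK over Veh with their standard errors from edgeR's quasi-likelihood fit over the 11698 genes that passed its filter on low counts. A gene was called when its Benjamini-Hochberg adjusted p was under 0.05 and its fold change over 1.5. Kdm1a, which encodes LSD1, the enzyme inhibited, lay between 89.1 and 99.1 CPM in Veh and between 84.0 and 90.9 CPM in GSK (log2 fold change -0.09, edgeR adjusted p = 0.22), and an inhibitor of the enzyme need not change its mRNA. The T-cell markers Cd3e and Cd8a were abundant, and Cd4 was between 0.472 and 1.79 CPM over the 6 samples. Cd3e was lower in GSK, at 279 to 289 CPM in Veh and 235 to 253 CPM in GSK (log2 fold change -0.23, edgeR adjusted p = 0.0015). Cd8a was at 495 to 533 CPM in Veh and 529 to 555 CPM in GSK (log2 fold change 0.07, edgeR adjusted p = 0.20). Cd8b1 had the opposite sign, at 395 to 418 CPM in Veh and 357 to 398 CPM in GSK (log2 fold change -0.11, edgeR adjusted p = 0.072). Of the 9 CD8+ T-cell markers in the table, edgeR and DESeq2 each called 0, and 8 had an unadjusted edgeR p under 0.05. Summed, the 9 overlapped between groups, at 3419 to 3573 CPM in Veh and 3333 to 3527 CPM in GSK. In bulk RNA, fewer cells of a type and less RNA per cell cannot be told apart.

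All 10 genes passed the filter on low counts. Acvr1 and Pmepa1 were called, both higher in GSK, and 0 of the 10 were called lower. Over all genes tested, 2.22% were called higher and 4.09% lower. Below 1.5-fold, the ligand gene, Smad2 and Skil were slightly higher in all 3 GSK samples, whereas Tgfbr1, Tgfbr2, Smad3 and Smad7 were lower in all 3. Ski was the only one of the 10 whose groups overlapped. In 5 genes, then, all GSK samples lay above all Veh samples, which was so for 23.7% of all genes tested, and in 4 genes all lay below, which was so for 23.0%. The median log2 fold change of the 10 genes was 0.13, and that of all genes tested was -0.0039. Because the genes were selected on this contrast, nothing is read from these shares.

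**Figure D1:**
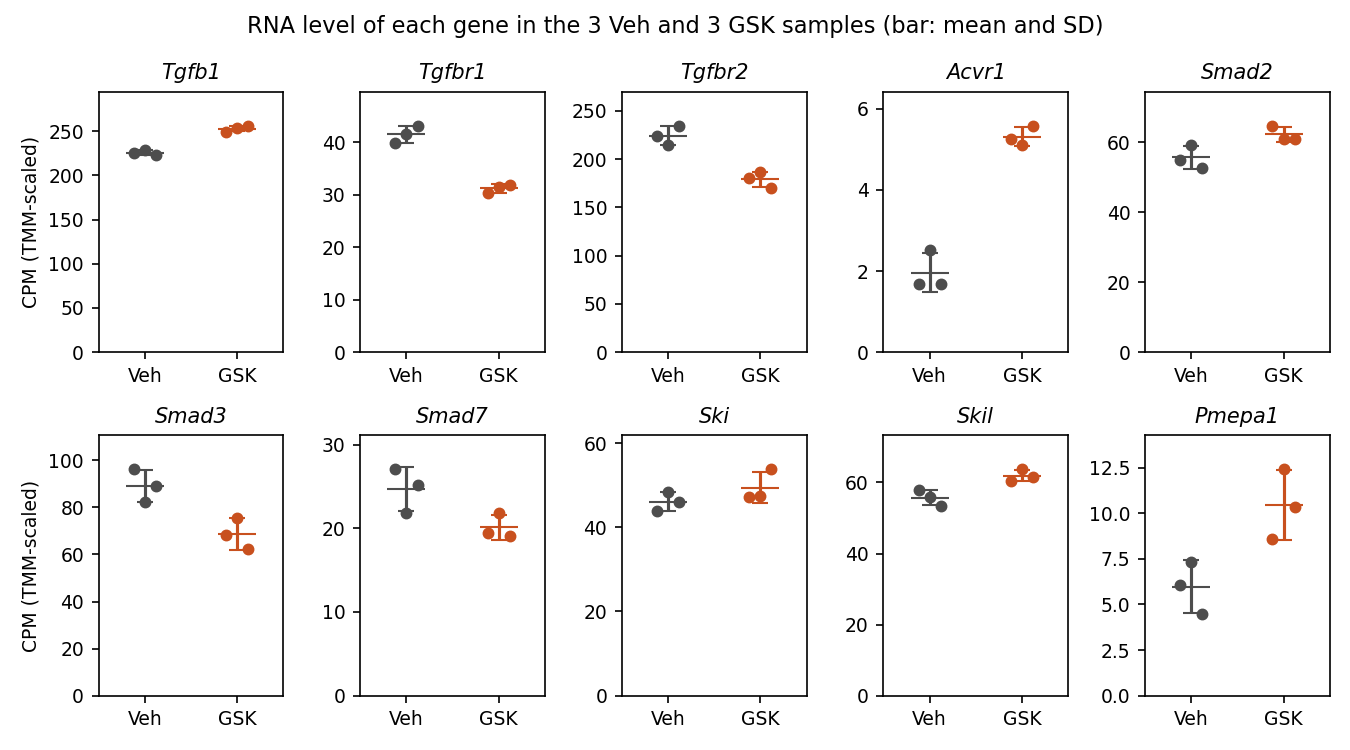
CPM of each of the 10 genes in each of the 3 Veh and 3 GSK samples, with the group mean and SD. The GSK samples of Acvr1 (5.11 to 5.58 CPM) stand clear of the Veh samples (1.68 to 2.52 CPM), and those of Ski overlap.

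The promoters of the 3 receptor genes are shown because the receptors held both the largest rise of the 10 genes and a pair with lower values. They are RefSeq sequences of GRCm38.p6, each from 250 bases before to 50 bases after the annotated start. Acvr1 lies on chromosome 2 (58446438-58566828 in GRCm38) and its promoter at chr2:58566779-58567078 on the minus strand. Tgfbr1 lies on chromosome 4 (47353222-47414926) and its first promoter at chr4:47352972-47353271 on the plus strand. Tgfbr2 lies on chromosome 9 (116087695-116175363) and its promoter at chr9:116175314-116175613 on the minus strand. Capitals mark the SMAD-binding motif CAGAC or its reverse complement GTCTG.
Acvr1: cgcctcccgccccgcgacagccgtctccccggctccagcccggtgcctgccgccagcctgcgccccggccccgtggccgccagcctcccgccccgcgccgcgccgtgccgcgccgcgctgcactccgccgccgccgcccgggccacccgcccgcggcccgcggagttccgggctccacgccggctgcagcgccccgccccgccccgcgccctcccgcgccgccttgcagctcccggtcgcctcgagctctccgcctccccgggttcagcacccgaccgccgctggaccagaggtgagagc
Tgfbr1: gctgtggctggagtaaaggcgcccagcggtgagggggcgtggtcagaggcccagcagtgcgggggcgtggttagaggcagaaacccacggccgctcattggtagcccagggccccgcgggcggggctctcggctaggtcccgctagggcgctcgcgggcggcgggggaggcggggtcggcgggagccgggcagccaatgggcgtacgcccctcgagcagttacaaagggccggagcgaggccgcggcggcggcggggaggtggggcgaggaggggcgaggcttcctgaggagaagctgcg
Tgfbr2: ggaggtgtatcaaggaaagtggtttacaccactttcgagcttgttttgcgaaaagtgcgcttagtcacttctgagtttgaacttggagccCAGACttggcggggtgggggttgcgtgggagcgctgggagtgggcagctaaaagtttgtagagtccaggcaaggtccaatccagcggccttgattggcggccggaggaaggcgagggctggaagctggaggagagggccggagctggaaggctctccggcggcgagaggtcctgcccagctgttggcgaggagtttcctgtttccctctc

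Of these sequences, that of Tgfbr2 held the motif once, 160 bases before the start, and those of Acvr1 and the first Tgfbr1 promoter did not hold it. A second Tgfbr1 promoter, at chr4:47385966-47386265 on the plus strand and not printed, held it once, 203 bases before the start. The G and C content was 83.7% for Acvr1, 74.7% for Tgfbr1 and 59% for Tgfbr2. RefSeq promoters were matched for 6 of the 10 genes, 7 promoters in all, and 5 of these lacked CAGAC on both strands. Among 32851 mouse promoters of 300 bases, 49.6% held it, and among the 12025 of tested genes 47.1% did. Median G and C content was 52.7% over the 32851 and 60.7% over the 12025. The palindrome GTCTAGAC was in 0.213% of the 32851 and in 0 of the 7. A match of letters describes the sequence only.

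Acvr1 differed most. Its levels were 1.69, 2.52 and 1.68 CPM in the Veh samples and 5.25, 5.11 and 5.58 CPM in the GSK samples. Every GSK sample was more than double the highest Veh sample. The means were 1.96 ± 0.483 CPM in Veh and 5.31 ± 0.240 CPM in GSK (SD, n = 3), a fold change of 2.70 and a log2 fold change of 1.43 (SE 0.21). These values rest on few reads, 31, 47 and 32 counts in Veh and 100, 101 and 107 in GSK. The coefficient of variation was 24.6% in Veh and 4.52% in GSK, each from 3 samples and so itself uncertain. With any 1 of the 6 samples left out, the log2 fold change lay between 1.33 and 1.65. Acvr1 overlaps the gene Gm17409 on the opposite strand, with 0 shared exon bases.

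The other type I receptor of the 10 moved the other way by a smaller amount. Tgfbr1 was at 39.9, 41.5 and 43.1 CPM in the Veh samples and at 30.3, 31.4 and 31.9 CPM in the GSK samples. The groups did not overlap, and each varied by little. The log2 fold change was -0.41 (SE 0.06), short of 1.5-fold, with means of 41.5 ± 1.61 and 31.2 ± 0.802 CPM (SD, n = 3). Tgfbr2, which encodes the type II receptor that binds the ligand, was at 224, 214 and 234 CPM in the Veh samples and at 180, 186 and 171 CPM in the GSK samples. All GSK samples were again lower, by a log2 fold change of -0.32 (SE 0.05).

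Because a long gene collects more reads, levels were compared between genes only as CPM per kilobase of exon (GENCODE M21 exon union). On this per-length scale Tgfbr2 was the most abundant receptor of the 3, at 27.4 in Veh and 21.9 in GSK, followed by Tgfbr1 at 6.35 and 4.77, and Acvr1 was lowest at 0.407 and 1.10. Acvr1 thus remained the lowest of the 10 genes in both groups, after its rise as before it. The ratio of Tgfbr1 to Acvr1 per length was 17.5, 12.2 and 18.9 in Veh and 4.26, 4.54 and 4.22 in GSK. Acvr1 made up 1.77, 2.66 and 1.97% of the summed per-length level of the type I receptors (Tgfbr1, Acvr1, Acvr1b, Acvrl1 and Bmpr1a, with Acvr1c and Bmpr1b near 0) in Veh and 5.81, 5.57 and 6.66% in GSK. Tgfbr1 made up 30.9, 32.4 and 37.3% in Veh and 24.8, 25.3 and 28.1% in GSK. By contrast, the ratio of Tgfbr2 to Tgfbr1 overlapped between groups, at 4.48, 4.12 and 4.34 in Veh and 4.75, 4.74 and 4.27 in GSK.

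**Figure D2:**
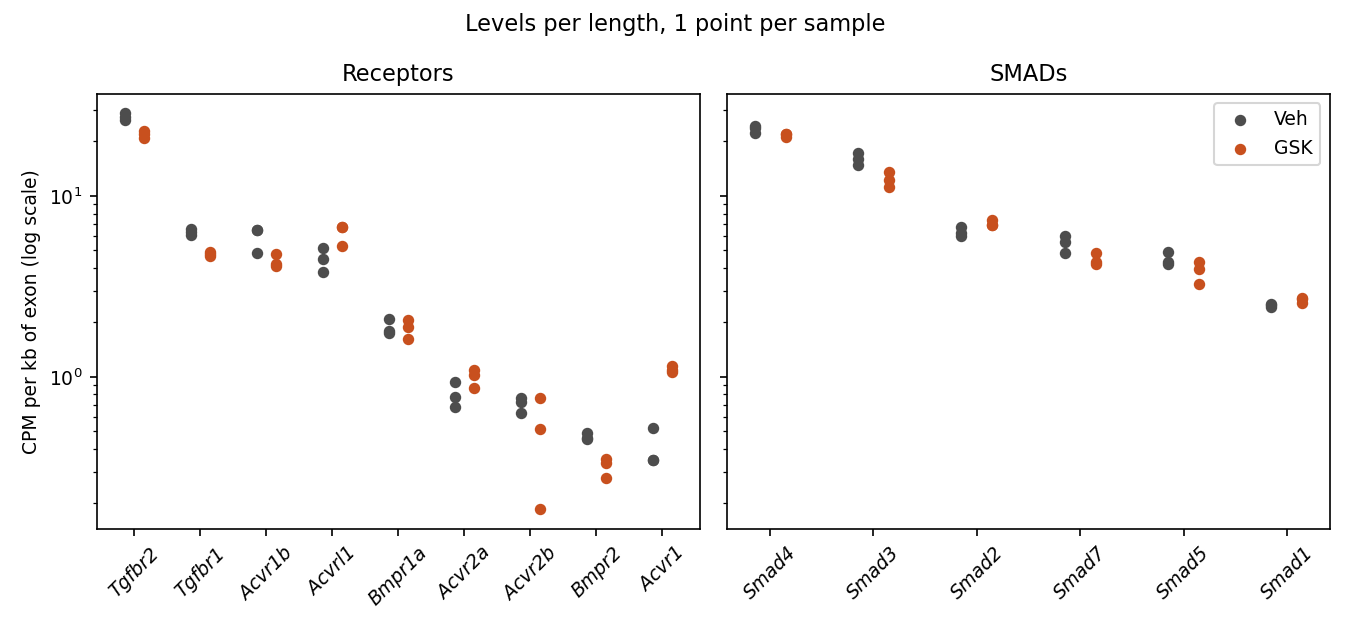
CPM per kilobase of exon, on a log axis, of receptor genes (left) and SMAD genes (right), with 1 point for each of the 3 Veh and 3 GSK samples. Tgfbr2 is the highest receptor (27.4 in Veh, 21.9 in GSK) and Acvr1 moves from 0.407 in Veh to 1.10 in GSK, while Smad3 (16.1 and 12.4) stays above Smad2 (6.33 and 7.08).

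Tgfb1, the ligand gene, lies on chromosome 7 (25687002-25705077). It had the highest per-length level of the 10 genes, 44.8 in Veh and 50.2 in GSK. It was at 226, 229 and 223 CPM in the Veh samples and at 249, 253 and 256 CPM in the GSK samples. The samples of each group lay within a few CPM of each other, with a coefficient of variation of 1.29% in Veh and 1.28% in GSK. The log2 fold change was 0.16 (SE 0.04), so the groups were separated by a small difference. With 3 samples per group, such a narrow spread is itself uncertain.

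The SMAD genes that carry the signal differed in opposite directions. Smad2 (chromosome 18, 76241090-76311748) was at 54.9, 59.2 and 52.7 CPM in the Veh samples and at 64.6, 60.9 and 61.0 CPM in the GSK samples, a log2 fold change of 0.16 (SE 0.06). Smad3 (chromosome 9, 63646766-63757994) was at 96.1, 82.3 and 88.9 CPM in the Veh samples and at 68.1, 75.5 and 62.1 CPM in the GSK samples, a log2 fold change of -0.38 (SE 0.08). Both sets of groups were separate, Smad2 by under 2 CPM between its nearest samples. The ratio of Smad2 to Smad3 per length was 0.361, 0.454 and 0.374 in Veh and 0.599, 0.509 and 0.619 in GSK. Smad3 therefore stayed the more abundant of the pair in all 6 samples. Smad7 (chromosome 18, 75367365-75395935) encodes the inhibitory SMAD that competes for the type I receptor. It was at 27.0, 21.8 and 25.2 CPM in the Veh samples and at 19.5, 21.8 and 19.0 CPM in the GSK samples, where Veh replicate 2 and GSK replicate 2 all but touched. Its log2 fold change was -0.30 (SE 0.09).

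**Figure D3:**
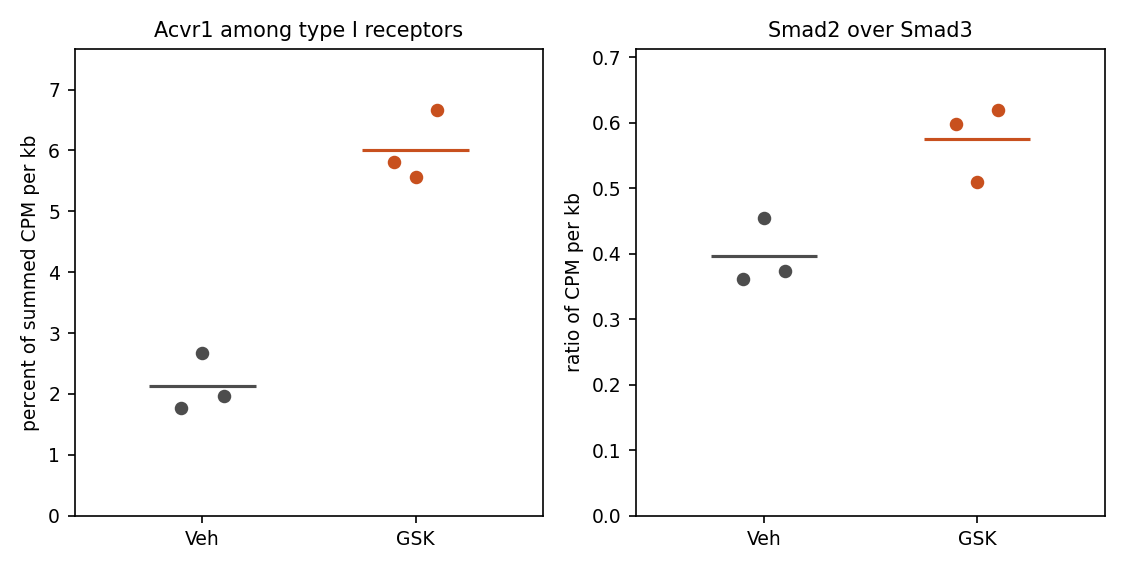
Acvr1 as a percent of the summed per-length level of the type I receptors (left) and the ratio of Smad2 to Smad3 per length (right), with 1 point per sample and a line at the mean of each group. Acvr1 takes 1.77 to 2.66% in Veh and 5.57 to 6.66% in GSK, and the Smad2 to Smad3 ratio is 0.361 to 0.454 in Veh and 0.509 to 0.619 in GSK.

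The nuclear corepressors differed little. Ski (chromosome 4, 155154075-155222535) and Skil (chromosome 3, 31095058-31122923) encode proteins that bind SMAD complexes and block their transcriptional activity. Ski was at 43.8, 48.4 and 46.0 CPM in the Veh samples and at 47.2, 47.4 and 53.8 CPM in the GSK samples, and its groups overlapped (log2 fold change 0.10, SE 0.07). Skil was at 57.9, 55.9 and 53.5 CPM in the Veh samples and at 60.5, 63.7 and 61.6 CPM in the GSK samples (log2 fold change 0.15, SE 0.05). Pmepa1 (chromosome 2, 173224458-173276731) encodes a membrane protein that sequesters SMAD2 and SMAD3. It was at 6.09, 7.35 and 4.47 CPM in the Veh samples and at 8.61, 12.4 and 10.3 CPM in the GSK samples. Its samples were spread in both groups, with a coefficient of variation of 24.2% in Veh and 18.2% in GSK, but did not overlap. The log2 fold change was 0.81 (SE 0.19), a fold change of 1.75, and with any 1 sample left out it lay between 0.64 and 0.99.

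**Figure D4:**
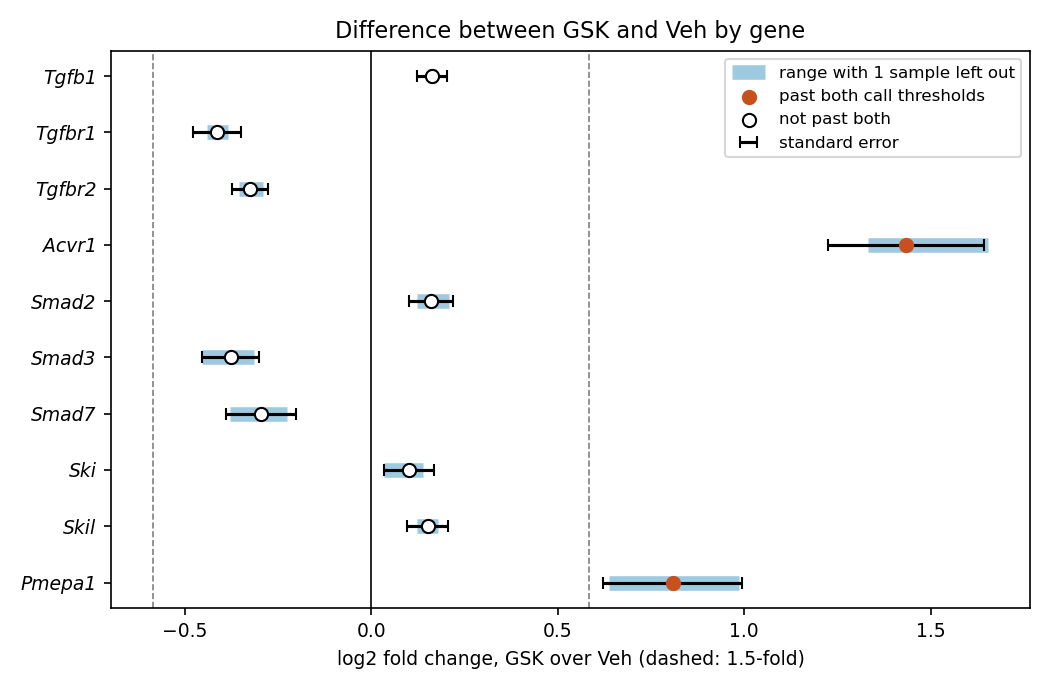
Log2 fold change of GSK over Veh for each of the 10 genes, with its standard error, the range with any 1 of the 6 samples left out and dashed lines at 1.5-fold. Acvr1 (1.43) and Pmepa1 (0.81) lie past the upper line, and the other 8 lie between the lines.

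In the per-length order of Veh, Tgfb1 was followed by Tgfbr2, Smad3 (16.1), Ski (8.28), Tgfbr1, Smad2 (6.33), Skil (5.75), Smad7 (5.46), Pmepa1 (1.22) and Acvr1. The samples of Tgfbr1 and Smad2 overlapped, as did those of Skil and Smad7, so the order within these pairs is not resolved. Smad4, the partner that Smad2 and Smad3 share, was at 23.5 in Veh and 21.7 in GSK per length, near Tgfbr2 (log2 fold change -0.12, edgeR adjusted p = 0.098). Of the genes on the bone morphogenetic protein side, Smad1 was at 2.49 and 2.67 and Smad5 at 4.49 and 3.86 per length. Neither passed the test, with edgeR adjusted p of 0.39 and 0.12. Smad6, Smad9, Acvr1c, Bmpr1b and Tgfb2 were not tested because of low counts. Smad4, Smad1 and Smad5 were named after their values were seen.

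Beyond these 10 genes, 90 pathway gene symbols were listed by role, of which 89 were in the count table and 69 were tested. In that test 5 were called higher and 5 lower in GSK, beside 2.22% and 4.09% of all genes tested, and the median log2 fold change was -0.04. By the adjusted p alone 15 were higher and 10 lower, and the shares over all genes tested were 16.6% and 15.5%. Among those called higher, Prf1, Gzmb, Ifng and Eomes were listed with their values in these samples known, as was Tbx21 among those called lower. Nothing is therefore read from these counts. Among the genes of ligands and their activation (8 tested), Ltbp3, which encodes a protein that holds latent TGF-beta, fell from 2.67 to 1.38 CPM (log2 fold change -0.95, edgeR adjusted p = 0.010). Its count is uncertain, because the strand setting of the counting is not given in the sources used here. Nrros, whose product anchors latent TGF-beta1 at the cell surface, averaged 123 CPM for Veh and 173 CPM for GSK, short of 1.5-fold (log2 fold change 0.49, edgeR adjusted p = 1.2e-05).

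Among 10 other receptor genes tested, edgeR and DESeq2 each called 0, and 4 had an unadjusted edgeR p under 0.05. The adjusted p alone passed for Acvrl1, a type I receptor of the bone morphogenetic protein family, with means of 19.0 CPM for Veh and 26.6 CPM for GSK (log2 fold change 0.49, edgeR adjusted p = 0.012). It passed for Acvr1b, the activin type I receptor, at 26.1 and 19.3 CPM (log2 fold change -0.43, edgeR adjusted p = 0.012), and for Bmpr2, the type II receptor, at 8.40 and 5.77 CPM (log2 fold change -0.54, edgeR adjusted p = 0.010). With 1 sample left out, the adjusted p reached 0.053 for Acvrl1, which no longer passed without GSK replicate 1, and 0.057 for Acvr1b, which no longer passed without GSK replicate 1, Veh replicate 1 or Veh replicate 2. Acvrl1 moved past 1.5-fold and was called without Veh replicate 1 or GSK replicate 3, and Bmpr2 without GSK replicate 3. Acvrl1 overlaps Gm16031.

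In the 3 other lists of pathway machinery (29 genes tested), edgeR and DESeq2 each called 0, and 9 had an unadjusted edgeR p under 0.05. Of 13 ubiquitin and phosphatase genes, Wwp1, a ubiquitin ligase, was higher (log2 fold change 0.35, edgeR adjusted p = 6.8e-04), as was Fkbp1a, whose product binds type I receptors (0.29, adjusted p = 7.1e-04). Usp11, a deubiquitinase, was lower (-0.38, adjusted p = 0.0021), and so was Ppp1r15a (-0.30, adjusted p = 0.027). The p of Ppp1r15a reached 0.13 with 1 sample left out, and was lost without Veh replicate 1, Veh replicate 3 or GSK replicate 3. Strap (0.21, adjusted p = 0.029) was the only one of 11 SMAD partner genes to pass, its groups overlapped, and its p was lost without Veh replicate 1, Veh replicate 2, GSK replicate 1 or GSK replicate 3. Of 5 genes of the TAK1 branch, Map3k7, which encodes TAK1, passed (0.16, adjusted p = 0.014) and was lost without Veh replicate 2.

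Of 10 tested genes listed as induced by TGF-beta in T cells, 1 was called higher and 0 lower, beside 2.22% and 4.09% of all genes tested. Whether TGF-beta induces each of them in these cells was not tested. Nt5e, which encodes the ectoenzyme CD73, was called higher, from 24.9 to 42.2 CPM (log2 fold change 0.76, edgeR adjusted p = 0.037), a call lost without Veh replicate 2, Veh replicate 3, GSK replicate 2 or GSK replicate 3. Id2, an inhibitor of helix-loop-helix factors, was at 209 and 311 CPM (log2 fold change 0.57, edgeR adjusted p = 5.1e-06), just short of 1.5-fold, and was called without Veh replicate 2, GSK replicate 1 or GSK replicate 2. Nedd9 was higher (0.21, adjusted p = 0.015) and Junb lower (-0.17, adjusted p = 0.034), neither past 1.5-fold. Nedd9 lost its p without Veh replicate 3 or GSK replicate 1, and Junb without Veh replicate 1, Veh replicate 3 or GSK replicate 2. Itgae, which encodes the integrin chain CD103 and was named after its value was seen, averaged 21.0 ± 8.12 CPM for Veh and 23.2 ± 2.59 CPM for GSK (SD, n = 3; log2 fold change 0.15, edgeR adjusted p = 0.77).

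Of 12 tested genes listed as repressed by TGF-beta, 4 were called higher and 4 lower, beside 2.22% and 4.09% of all genes tested. Whether TGF-beta represses each of them in these cells was not tested. The values of Prf1, Gzmb, Ifng, Eomes and Tbx21 in these samples were known when the list was made. The whole list was also chosen with earlier results of these data known. None of its genes is therefore independent evidence of a direction, and nothing is read from these counts. Prf1 (log2 fold change 1.09, edgeR adjusted p = 3.9e-07) and Gzmb (0.62, adjusted p = 0.019), both of the cytotoxic granule, rose, as did the cytokine gene Ifng (1.39, adjusted p = 0.014) and the transcription factor gene Eomes (1.08, adjusted p = 1.5e-08). Gzma, also a granule gene and named after its value was seen, had the opposite sign but overlapping groups, at 254 ± 74.6 CPM for Veh and 141 ± 47.9 CPM for GSK (SD, n = 3; -0.85, edgeR adjusted p = 0.15). The call of Gzmb was lost without Veh replicate 1, Veh replicate 3, GSK replicate 1 or GSK replicate 3, and that of Ifng without GSK replicate 3. The transcription factor genes Tbx21 (-0.64, adjusted p = 4.6e-05), Gata3 (-0.90, adjusted p = 6.0e-05) and Klf2 (-1.05, adjusted p = 0.0030) fell. S1pr1, which encodes a receptor for exit from tissues and is a target of Klf2, fell from 114 to 48.3 CPM (-1.23, adjusted p = 0.018), a call lost without GSK replicate 1 or GSK replicate 3. Fasl was at 64.8 and 94.1 CPM, short of 1.5-fold (0.54, adjusted p = 4.7e-04), and was called without GSK replicate 1. Ifng overlaps Gm49751 and Gata3 overlaps 9230102O04Rik, each on the same strand.

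**Figure D5:**
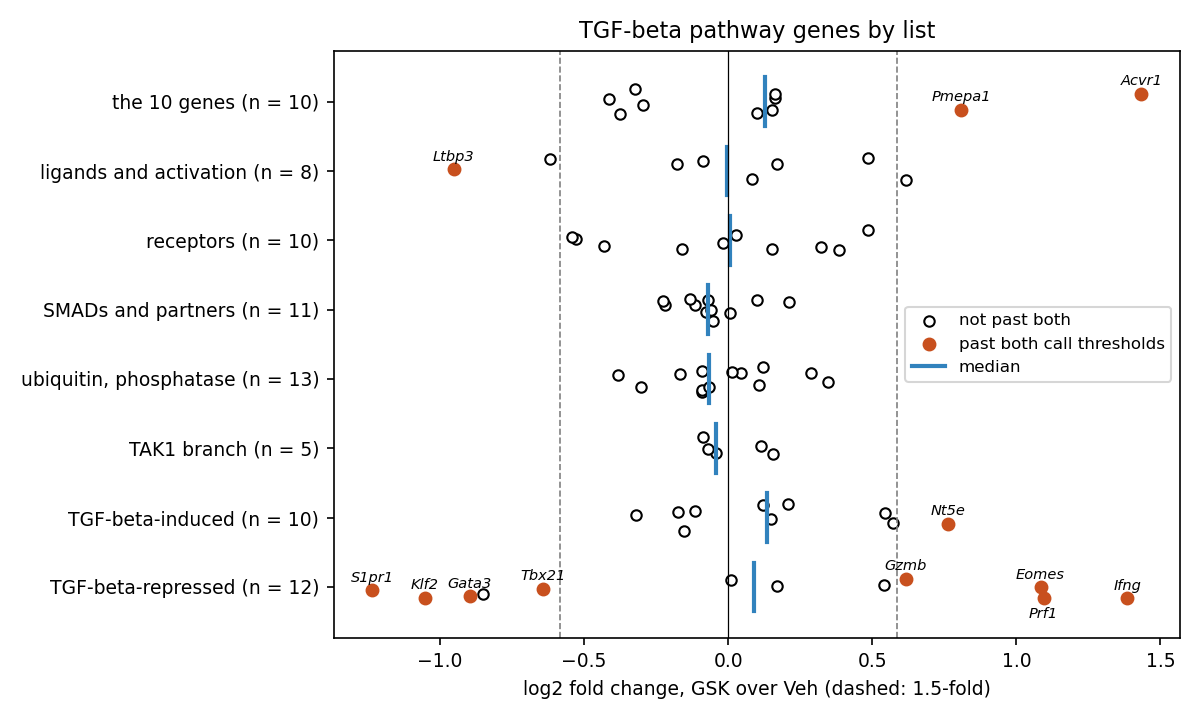
Log2 fold change of GSK over Veh for every tested gene of the 10 and of the other 7 lists, with a median per list and dashed lines at 1.5-fold. Most of the machinery lies between the lines, and the TGF-beta-repressed list has 4 called genes past each line.

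Genes whose pattern over the 6 samples was most like that of Acvr1 were Pik3r3, Themis2, Gcnt1, Evi5 and Cdkn2b. Likeness was the root mean square difference of log2 CPM after centring each gene, and it ran from 0.0957 for Pik3r3 to 0.165 for Cdkn2b. Their log2 fold changes were 1.41 for Pik3r3, 1.26 for Themis2, 1.35 for Evi5 and 1.17 for Cdkn2b, and Gcnt1 averaged 15.7 CPM for Veh and 44.5 CPM for GSK. Pik3r3 shares 1289 exon bases with Gm49337 on the same strand, and Evi5 overlaps Gm43592. Because likeness was sought over the same samples, these values describe the match only.

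Markers of other cells moved with the groups in places. The 4 NK-cell markers summed to between 204 and 224 CPM in Veh and between 432 and 467 CPM in GSK, of which Eomes alone, a transcription factor gene that T cells also express, gave 194 to 213 CPM in Veh and 419 to 453 CPM in GSK. Eomes was the one called, and Ncr1 had under 10 counts. Myeloid markers summed to between 14.7 and 20.9 CPM in Veh and 11.5 and 15.0 CPM in GSK, with Fcgr3 and Itgax called lower and with Csf1r, Adgre1 and Cd14 under 10 counts. CD4+ and regulatory T-cell markers were at 68.5 to 82.0 and 57.9 to 59.4 CPM, with Ikzf2 called lower. B-cell markers were at 6.20 to 8.16 and 7.82 to 9.21 CPM, with Cd22 called higher and with Ms4a1 and Pax5 under 10 counts. Platelet markers were at 1.47 to 2.31 and 0.682 to 1.30 CPM, with Itga2b called lower and with Pf4, Gp9 and Gp1ba under 10 counts, and stromal markers at 76.0 to 84.4 and 61.1 to 75.4 CPM, with 0 called by edgeR or DESeq2 and 2 of 5 tested at an unadjusted p under 0.05. Their part in the values of the 10 genes was not tested.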

How the data were processed

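RNA of 6 cultures was sequenced from poly(A)-selected, stranded libraries. Per the submitters' processing notes and the methods, the authors trimmed reads with Trimmomatic, mapped them to GRCm38 with HISAT2 (version 2.1.0) and counted them with HTSeq (version 0.11.2). The deposited values are raw counts per gene. The authors also ran Cufflinks (version 2.2.1) and DESeq2 (version 1.22.2). The annotation release and strand setting are not given in the sources used here, so counts of overlapping genes are uncertain.

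From the counts, GSK was compared with Veh by edgeR (version 4.0.16, under R version 4.3.3) with TMM scaling, filterByExpr, the robust quasi-likelihood test and Benjamini-Hochberg adjustment over 11698 genes. Standard errors came from the test statistic. The alternatives were DESeq2 (version 1.42.0), a replicate block, RLE size factors, no low-count filter, a filter of at least 1 CPM in 3 samples, the adjusted p alone, a test against 1.5-fold and leaving out each sample. The script was tested on simulated data. Every column of per-sample counts was assigned to a sample.

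The 10 genes, the pathway lists and the marker lists were chosen with earlier results of these data known. Named from the lists were every called gene, up to 4 more per list of smallest p among those with an adjusted p under 0.05, and the 5 genes most like Acvr1. Genes named beyond this rule are said to be so. Some marker and overlap results are not reported here. Replicates of a group differed by more than sampling noise (chi-square over its degrees of freedom between 3.95 and 9.02). The study names 3 separate OT1 mice and gives 3 mice per group. Whether cultures with the same number share a mouse is not stated, so the main test ignored any pairing by mouse. Its p-values weigh each difference against the spread between these cultures. The smallest two-sided p of an exact permutation test of 3 against 3 is 0.1, so none was used. Exon lengths came from GENCODE M21, and gene positions from a RefSeq table of GRCm38.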

Additional observations from a re-analysis of the deposited data

How the results depend on the processing

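The log2 fold changes of the 10 genes kept their direction, and stayed called or not called by both thresholds together, in 110 of 110 values from the alternatives that kept both thresholds, and counts of called genes stayed within 1.5 times the reported count in 65 of 78. With the adjusted p alone, 4 of the 10 genes passed as higher and 4 as lower in place of 2 and 0, 15 and 10 of the other pathway genes in place of 5 and 5, and 1941 and 1819 of all genes in place of 260 and 479. Against a 1.5-fold change as the null, 1 of the 10 genes (Acvr1) was called higher, 2 other pathway genes higher and 0 lower, and 69 and 65 of all genes. With 1 sample left out, the other pathway genes called higher ranged from 3 to 6, with 3 without Veh replicate 3 and 3 without GSK replicate 3. Whether same-numbered cultures share a mouse is not stated. Their deviations from the group means correlated at -0.052, -0.081 and 0.16, which does not settle the pairing, so the block was kept as an alternative. With the replicate block 2 of the 10 genes were called higher and 0 lower, 5 and 6 other pathway genes, and 253 and 447 of all genes. Gzma was the pathway gene added among those lower (edgeR adjusted p = 0.0039 with the block). Skil, Smad7 and Smad2 were not called. By the adjusted p alone, Skil passed in the main fit only (edgeR adjusted p = 0.0493) and in none of the alternatives that kept both thresholds. With DESeq2, for example, 3 of the 10 genes passed as higher and 4 as lower. Smad7, which passed in the main fit, failed in some alternatives, and Smad2, which did not, passed in some. Low counts limit Acvr1 and Pmepa1 most. Because the 10 genes were chosen from the GSK and Veh values, how many passed under each setting is a description and no support.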

Other observations

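The deposited table carries a pathway annotation, and its TGF-beta signaling entry was looked up after the data had been seen. Without the 10 genes it held 78 genes, of which 48 were tested. Of these, 4 were called higher in GSK and 0 lower, beside 2.22% and 4.09% of all genes tested. By the adjusted p alone 10 were higher and 3 lower, beside 16.6% and 15.5%. The median log2 fold change was -0.03. Rgmb, a co-receptor of bone morphogenetic proteins, rose from 2.87 to 15.8 CPM (log2 fold change 2.46, SE 0.15, edgeR adjusted p = 3.9e-07). Cdkn2b, which encodes a cell-cycle inhibitor, rose from 13.0 to 29.4 CPM (1.17, SE 0.09, adjusted p = 3.6e-06). The cytokine genes Ifng, described above, and Tnf (1.17, adjusted p = 6.4e-07) were the others called higher.

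The 2 tested genes nearest on each side of each of the 10 made 39 distinct genes, with Smad2 and Smad7 included as neighbours of each other. Of these, 1 was called higher and 1 lower, beside 2.22% and 4.09% of all genes tested. Zbp1, a sensor of Z-form nucleic acids, lies 5.50 kb from Pmepa1 and was at 155, 152 and 109 CPM in Veh and 226, 239 and 187 CPM in GSK (log2 fold change 0.65, SE 0.17, edgeR adjusted p = 0.045), a call lost with any 1 of the 6 samples left out. Col15a1, a collagen gene, lies 40.1 kb from Tgfbr1 and fell by 1.27 on the log2 scale (SE 0.35, adjusted p = 0.015), a call lost without Veh replicate 2. Cytip, the nearest tested gene to Acvr1 on one side, had a log2 fold change of -0.32 (adjusted p = 3.4e-04), short of 1.5-fold. These neighbours were chosen after the data had been seen.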
